A study of Homo sapiens with 6 samples.

Results

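The genes of plasminogen activation and of the tissue factor pathway were followed in hTERT RPE1 cells, an established human retinal pigment epithelial line immortalised with telomerase. They are 9 genes, PLAU, PLAUR, PLAT, SERPINE2, SERPINB2, F3, TFPI, TFPI2 and THBD, taken by symbol from the 38900 Ensembl IDs of the expression table. Each symbol matched a single ID. In these polyA RNA sequencing data, 3 libraries came from cells treated with 100 nM combretastatin A4 (CA4) for 6 hours and 3 from cells given the solvent, 0.1% DMSO, for the same time. All cultures had first been held at confluency for 5 days, so that both groups were quiescent, and both received fresh medium at treatment. CA4 is a small molecule that binds the colchicine site of tubulin and depolymerizes microtubules. The comparison asks how transcripts differ when microtubules are lost in cells that are not dividing. The labels do not say whether replicates were grown separately, so p-values measure only the spread between these libraries, which may be technical.

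Plasminogen is a circulating zymogen that urokinase (PLAU) and tissue plasminogen activator (PLAT) cut to plasmin, a protease of fibrin and of matrix. Urokinase works at the cell surface on its receptor, PLAUR, and serpins such as SERPINB2 and SERPINE2 inhibit it. Tissue factor (F3) is the membrane protein that binds factor VIIa and starts coagulation. TFPI blocks that complex, TFPI2 is a related inhibitor that acts chiefly on plasmin and other matrix proteases, and thrombomodulin (THBD) turns thrombin toward the activation of protein C. The receptor and inhibitor genes of this system are well known to respond to cytokines, growth factors and phorbol esters in cultured cells.

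The libraries held between 19524936 and 22538004 reads, recovered from the normalized counts, and all 9 genes were above the filter on low values, a mean of 10 normalized counts. Of the markers set down for the cell line, RPE65, BEST1, PMEL, MITF, OTX2 and SERPINF1 were above that filter among 12 genes of retinal pigment epithelium, and DCT and TTR were listed at 0 in all 6 libraries. The summed level of those 12 genes ran from 1147 to 1854 normalized counts in DMSO and from 652 to 1058 in CA4. MITF, with means of 885 and 457, and OTX2, with 533 and 244, made up most of that sum, while BEST1 averaged 77.3 and 72.5. RPE65 (27.5 and 16.0), PMEL (15.6 and 18.7) and SERPINF1 (14.6 and 16.8) were low, and RLBP1, TYR, TYRP1 and LRAT were below the filter. The sum of 5 epithelial genes was 22546 to 25504 in DMSO and 26032 to 31463 in CA4, nearly all of it from the keratins KRT8 and KRT18, while the defining epithelial genes EPCAM and CDH1 were below the filter. All 6 genes of the fibroblast list were above the filter, and their sum ran from 48509 to 77833 in DMSO and from 36918 to 67181 in CA4. Most of it came from COL1A1, with means of 49885 and 40147. COL1A2 (31.5 and 26.7) and LUM (38.4 and 25.4) were low. The sum of 4 leukocyte markers was between 19.6 and 21.8 in DMSO and between 26.9 and 41.6 in CA4, with CD3E listed at 0 in every library. Only LYZ among them was above the filter, with means of 16.8 and 28.2, and it made up most of that sum. The part of these shifts in the results below was not tested, and in bulk RNA fewer cells of a type and less RNA per cell cannot be told apart.

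F3, the tissue factor gene, and PLAUR, the urokinase receptor gene, rose under CA4. The fitted fold change was 2.82 for F3 (95% interval 2.05 to 3.88) and 2.27 for PLAUR (95% interval 1.51 to 3.4). These 2 of the 9 genes passed limma's threshold, an adjusted p of 0.05 over all 13928 genes tested, both upward, and 0 passed downward. Across all genes tested 4.94% passed, 2.97% higher and 1.97% lower in CA4. Of the called genes, 60.0% were higher in CA4 with the deposited scaling and 34.8% when all libraries were given equal totals. That second scaling moved the median of all genes by -0.10 on the log2 scale. The CA4 libraries lay wholly above the DMSO libraries for 4 of the 9 genes, F3, PLAUR, PLAU and SERPINB2, where 27.7% of all tested genes had groups that did not overlap in either direction. The log2 fold change was above 0 in 8 of the 9 genes, TFPI among them at 0.038, and in 6806 of the 13928 genes tested. Its median was 0.53 in the 9 genes against -0.0082 over all genes tested. The 9 genes were proposed as a group with earlier results of these libraries known.

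**Figure D1:**
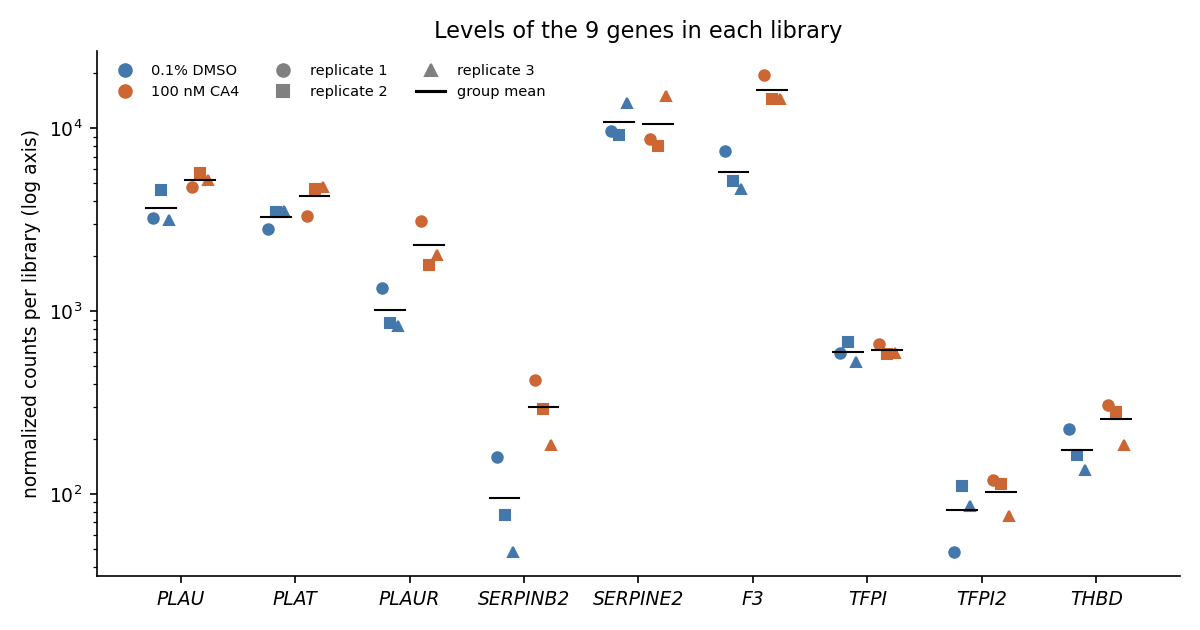
Normalized counts of the 9 genes (log axis) in each library, with DMSO in blue, CA4 in orange, marker shapes for replicate numbers 1 to 3 and a black line at each group mean. F3, PLAUR, PLAU and SERPINB2 have all 3 CA4 points above all 3 DMSO points, and in the other 5 genes the groups overlap.

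The urokinase receptor is a membrane-anchored protein that concentrates urokinase on the cell surface. PLAUR (ENSG00000011422, chr19:43646095-43670547, minus strand, GRCh38, GENCODE 29) had 1343, 864 and 826 normalized counts in the DMSO libraries, given here and below in the order of replicates 1, 2 and 3, and 3109, 1787 and 2016 in the CA4 libraries. Replicate 1 was the highest library in both groups, and the lowest CA4 library still exceeded the highest DMSO library. The group means were 1011 ± 288 and 2304 ± 706 (SD, n = 3 each). limma put the log2 fold change at 1.18 with SE 0.25 (adjusted p = 0.043). This call is close to the threshold. It was lost in 5 of the 6 fits without a library, with limma adjusted p from 0.0523 to 0.153, and kept without DMSO replicate 1 (0.0203). It was also lost under quantile normalization (0.0519), with equal totals (0.0538) and without the variance trend (0.102).

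Urokinase, the ligand of that receptor, is a secreted serine protease. PLAU (ENSG00000122861, chr10:73909177-73917497, plus strand) had 3252, 4580 and 3171 normalized counts in the DMSO libraries and 4754, 5672 and 5246 in the CA4 libraries. Replicate 2 was the highest in both groups, and the groups did not overlap, although CA4 replicate 1 exceeded DMSO replicate 2 by little. The means were 3667 ± 791 and 5224 ± 459 (SD, n = 3 each), and the log2 fold change of 0.53 (SE 0.15, 95% interval 0.18 to 0.88) did not pass (limma adjusted p = 0.0879). It passed without DMSO replicate 2 (limma adjusted p = 0.047) and in DESeq2 on the recovered reads (adjusted p = 0.0218). PLAU also passed with the replicate number as a block (limma adjusted p = 0.0111), a pairing that the labels do not state. C10orf55, on the opposite strand, shares 31.1% of the PLAU exon bases in GENCODE 29. It averaged 3.54 normalized counts in DMSO and was listed at 0 in CA4.

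Tissue plasminogen activator is the other activator, best known for its action on fibrin clots. PLAT (ENSG00000104368, GRCh38 chromosome 8, 42175233 to 42207724, minus strand) had 2819, 3504 and 3531 normalized counts in DMSO and 3330, 4641 and 4774 in CA4. Replicate 1 was the lowest library of each group, and CA4 replicate 1 fell within the DMSO range. The log2 fold change was 0.36 (SE 0.16, 95% interval -0.0082 to 0.73, limma adjusted p = 0.228). It passed only with the replicate number as a block (limma adjusted p = 0.0147). The log2 ratio of PLAU to PLAT within a library, which does not depend on scaling between libraries, averaged 0.15 ± 0.28 without CA4 and 0.31 ± 0.19 with it (SD over 3 libraries, exact permutation p = 0.5, two-sided). The groups overlapped in this ratio, and such a p does not show that the ratios are equal.

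Among the inhibitors, SERPINB2, plasminogen activator inhibitor 2, is a largely intracellular serpin that is strongly induced in many stimulated cells. It had the highest fold change of the 9 genes and a wide spread. SERPINB2 (ENSG00000197632, chr18:63871692-63903890, plus strand) had 160, 76.7 and 48.4 normalized counts in DMSO and 419, 292 and 185 in CA4. Replicate 1 was highest and replicate 3 lowest in both groups, and the lowest CA4 library lay above the highest DMSO library. The means were 95.1 ± 58.2 and 299 ± 117 (SD, n = 3 each), and the log2 fold change of 1.74 (SE 0.46, 95% interval 0.67 to 2.81) did not pass (limma adjusted p = 0.0749). It passed without DMSO replicate 1 (log2 fold change 2.20, limma adjusted p = 0.0235) and in DESeq2 on the recovered reads (adjusted p = 0.00327). With the replicate number as a block it passed as well (limma adjusted p = 0.0023), and in edgeR it did not (adjusted p = 0.0875). SERPINB10, on the same strand, shares 19.9% of these exon bases in GENCODE 29 and was listed at 0 in all 6 libraries.

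SERPINE2, protease nexin 1, is a secreted inhibitor of thrombin, urokinase and plasmin. SERPINE2 (ENSG00000135919, chr2:223975112-224039319, minus strand) had 9639, 9212 and 13775 normalized counts in DMSO and 8695, 8001 and 15067 in CA4. Replicate 3 stood high in both groups, and the groups overlapped. The log2 fold change was -0.074 (SE 0.26, 95% interval -0.67 to 0.52, limma adjusted p = 0.899), and its sign differed between fits without a library. The log2 ratio of PLAU to SERPINE2 was -1.57, -1.01 and -2.12 in DMSO and -0.87, -0.50 and -1.52 in CA4, a difference of 0.60 (two-sided exact permutation p = 0.2). DMSO and CA4 overlapped in that ratio.

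Tissue factor, the initiator of coagulation, had the lowest p of the 9 genes. F3 (ENSG00000117525, chr1:94529225-94541800, minus strand) had 7551, 5165 and 4684 normalized counts without CA4 and 19673, 14526 and 14390 with it. Every CA4 library was well above every DMSO library, and replicate 1 was the highest in both groups. The means were 5800 ± 1535 and 16196 ± 3011 (SD, n = 3 each). The log2 fold change was 1.50 with SE 0.20 (limma adjusted p = 0.0122), and F3 ranked 99 by p among the 13928 genes. F3 passed in 4 of the 6 fits without a library and missed the threshold without DMSO replicate 2 (limma adjusted p = 0.0582) and without DMSO replicate 3 (0.0599). It also missed without the variance trend (0.0574). Of the normalized counts of the 9 genes together, F3 made up 22.7% ± 6.13 without CA4 and 40.7% ± 7.04 with it (SD over 3 libraries), while SERPINE2 made up 42.3% ± 7.92 and 26.3% ± 7.93. The SERPINE2 level itself averaged 10875 ± 2521 and 10588 ± 3894 normalized counts.

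The promoters of F3, PLAUR and SERPINB2, whose groups did not overlap, and of TFPI, whose groups did, are shown as the 250 bases before the RefSeq start (GRCh38.p14), 5′ to 3′ on the strand of the gene. RefSeq sequences were found for PLAUR, SERPINB2, F3, TFPI and TFPI2. The window of TFPI2, whose groups overlapped as well, was searched and holds an AP-1 match, but is not printed. PLAU, whose groups did not overlap, had no sequence to search, nor had PLAT, SERPINE2 and THBD. Capitals mark matches to the AP-1 motif TGANTCA and to the NF-kB motif GGNNTTTCC, searched on both strands. The windows are chr1:94541760-94542009 (minus strand) for F3, chr19:43670170-43670419 (minus) for PLAUR, chr18:63887455-63887704 (plus) for SERPINB2 and chr2:187554436-187554685 (minus) for TFPI. GENCODE 29 models of F3, PLAUR, SERPINB2 and TFPI also begin further upstream than the RefSeq start.
F3: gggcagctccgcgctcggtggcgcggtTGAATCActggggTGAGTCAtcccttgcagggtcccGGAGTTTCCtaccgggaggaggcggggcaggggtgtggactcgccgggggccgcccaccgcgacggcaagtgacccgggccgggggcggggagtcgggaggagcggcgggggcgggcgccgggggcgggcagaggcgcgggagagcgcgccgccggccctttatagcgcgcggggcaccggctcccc
PLAUR: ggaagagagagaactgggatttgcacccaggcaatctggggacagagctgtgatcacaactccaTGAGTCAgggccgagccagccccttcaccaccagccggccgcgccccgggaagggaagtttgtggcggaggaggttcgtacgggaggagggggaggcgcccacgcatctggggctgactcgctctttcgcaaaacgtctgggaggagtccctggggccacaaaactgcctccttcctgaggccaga
SERPINB2: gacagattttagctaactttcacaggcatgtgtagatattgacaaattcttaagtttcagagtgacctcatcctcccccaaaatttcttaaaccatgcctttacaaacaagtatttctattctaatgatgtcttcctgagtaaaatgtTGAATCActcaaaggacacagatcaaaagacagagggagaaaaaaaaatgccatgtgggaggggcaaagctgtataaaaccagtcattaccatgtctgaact
TFPI: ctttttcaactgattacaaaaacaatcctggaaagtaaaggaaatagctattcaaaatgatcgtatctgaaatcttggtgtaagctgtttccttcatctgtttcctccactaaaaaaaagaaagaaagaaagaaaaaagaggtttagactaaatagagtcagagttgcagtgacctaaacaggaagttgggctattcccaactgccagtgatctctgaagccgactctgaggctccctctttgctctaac

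The F3 window held 2 AP-1 matches, beginning 223 and 210 bases before the start, and an NF-kB match beginning at 187. None of these matches overlap. The PLAUR window held an AP-1 match at 186 and the SERPINB2 window an AP-1 match at 102. TFPI2, whose values did not pass, held an AP-1 match at 87, and the TFPI window held neither motif. Among the 35116 RefSeq promoters of the same length, 6.57% held the AP-1 motif and 5.48% the NF-kB motif. The TEAD motif GGAATG, in 11.9% of all promoters, was in none of the 5 windows, and the SP1 motif GGGCGG, in 42.6%, was in those of F3, with 4 matches, and TFPI2, with 2. A match describes letters in the window and not a bound site.

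TFPI, the Kunitz-type inhibitor of the tissue factor complex, is the physiological brake on F3. TFPI (ENSG00000003436, chr2:187464230-187565760, minus strand) had 587, 677 and 526 normalized counts in DMSO and 661, 581 and 588 in CA4. The CA4 values lay within the DMSO range. The log2 fold change was 0.038 (SE 0.12, limma adjusted p = 0.894), and its 95% interval from -0.25 to 0.33 leaves out a change of the size seen in F3. With equal library totals it was -0.064. The log2 ratio of F3 to TFPI was 3.68, 2.93 and 3.15 in DMSO and 4.89, 4.64 and 4.61 in CA4, with means of 3.25 ± 0.39 and 4.71 ± 0.16 (SD, n = 3 each). All CA4 ratios exceeded all DMSO ratios. The difference of 1.46 had a two-sided exact permutation p of 0.1, the smallest that 3 against 3 allows, and 0.3 adjusted over the 3 ratios computed.

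**Figure D2:**
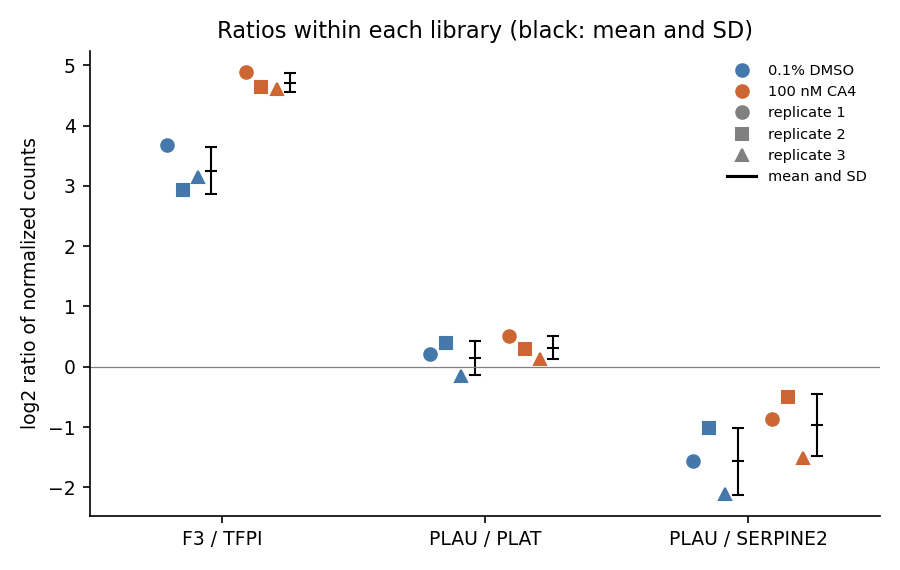
Log2 ratio of normalized counts within each library for F3 to TFPI, PLAU to PLAT and PLAU to SERPINE2, with DMSO in blue, CA4 in orange, marker shapes for replicate numbers and black bars for the mean and SD of 3 libraries. The F3 to TFPI ratio lies at 2.93 to 3.68 in DMSO and 4.61 to 4.89 in CA4, and the other ratios overlap between groups.

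TFPI2 is a secreted Kunitz-type inhibitor of the matrix. TFPI2 (ENSG00000105825, chr7:93885396-93890991, minus strand) was low, with 48.3, 110 and 86.4 normalized counts in DMSO and 120, 113 and 75.8 in CA4. The groups overlapped, and replicate 3 was the lowest CA4 library. The log2 fold change was 0.38 (SE 0.34, 95% interval -0.41 to 1.17, limma adjusted p = 0.551). It was 0.048 without DMSO replicate 1 and 0.64 without DMSO replicate 2.

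Thrombomodulin is the thrombin receptor that makes thrombin an anticoagulant. THBD (ENSG00000178726, chr20:23045633-23049741, minus strand) had 226, 164 and 135 normalized counts in DMSO and 308, 281 and 186 in CA4. Replicate 1 was the highest in both groups, and CA4 replicate 3 fell within the DMSO range. The means were 175 ± 46.6 and 258 ± 64 (SD, n = 3 each), and the log2 fold change of 0.56 (SE 0.26, 95% interval -0.037 to 1.16) did not pass (limma adjusted p = 0.246). It passed only with the replicate number as a block (limma adjusted p = 0.0362). THBD and TFPI are also genes of endothelium. The summed level of 6 endothelial markers, all of them above the filter, was 687 to 995 normalized counts in DMSO and 854 to 1891 in CA4. By their means in DMSO and CA4, PECAM1 (317 and 577), CDH5 (244 and 387), CLDN5 (36.6 and 57.4) and ERG (37.9 and 63.2) were higher in CA4. TEK (65.4 and 61.9) and KDR (149 and 143) were slightly lower. PECAM1 was highest in CA4 replicate 3 at 916 against 284 to 457 in the other libraries, while THBD was at its lowest CA4 value in that library. The part of these markers in the THBD values was not tested.

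**Figure D3:**
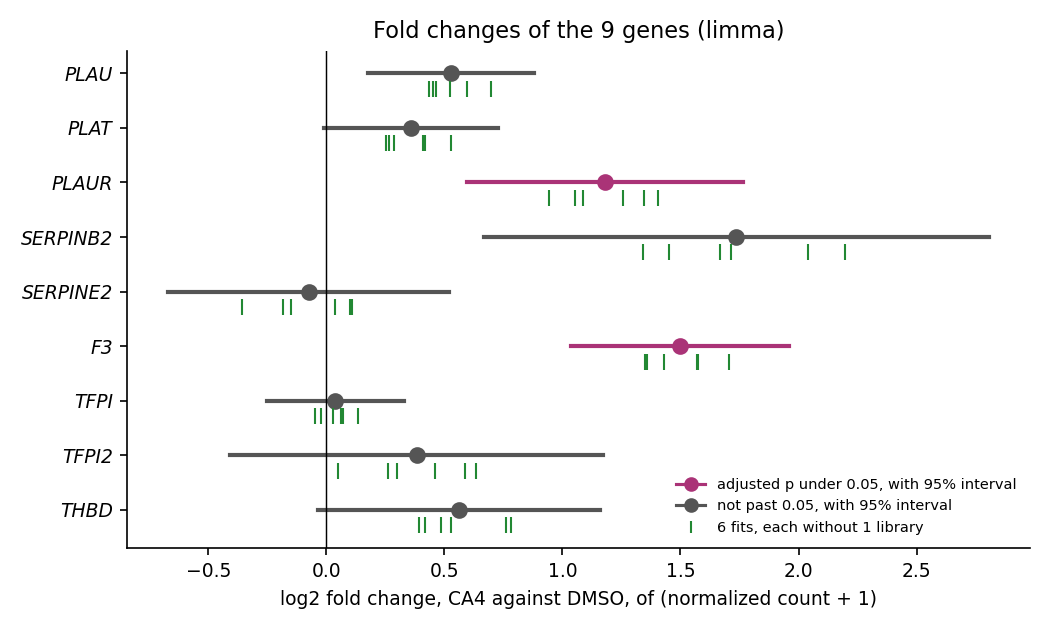
Log2 fold change of (normalized count + 1), CA4 against DMSO, for the 9 genes from limma, with bars for the 95% interval and green ticks for the 6 fits that each leave out 1 library. F3 and PLAUR, in purple, passed the threshold, and every tick of F3, PLAUR, SERPINB2, PLAU, PLAT, TFPI2 and THBD lies above 0 while those of SERPINE2 and TFPI lie on both sides.

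The replicate numbers ordered several of these genes alike in both groups. Replicate 1 was the highest library of DMSO and of CA4 in 4 of the 9 genes, PLAUR, SERPINB2, F3 and THBD. Replicate 3 was the highest in both groups in PLAT and SERPINE2, and replicate 2 in PLAU. The ratio of highest to lowest DMSO library was 3.31 in SERPINB2, about the size of its fold change of 3.33, and 1.61 in F3, below its fold change of 2.82. Without DMSO replicate 1, 3 of the 9 genes passed in limma, F3, PLAUR and SERPINB2, and 994 of all 13928 genes did. Without DMSO replicate 2, PLAU alone passed of the 9, with 100 of all genes, and without DMSO replicate 3, 0 of the 9 and 81 of all genes.

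Levels of different genes were compared as normalized counts per kilobase of GENCODE 29 exon length, which need not be the authors' transcript models. In DMSO, F3 came first at 2018 ± 534 per kilobase, followed by PLAU at 1243 ± 268, SERPINE2 at 1223 ± 283, PLAT at 496 ± 61 and PLAUR at 227 ± 64.7 (SD, n = 3 each). PLAU and SERPINE2 could not be ordered, since their libraries overlapped. TFPI, THBD, SERPINB2 and TFPI2 followed at means of 50.9, 42.5, 34.6 and 30.5 per kilobase, and each of these neighbours overlapped the next. In CA4, F3 was first at 5633 ± 1047 per kilobase, apart from the rest. PLAU at 1771 ± 156 and SERPINE2 at 1191 ± 438 per kilobase overlapped again. PLAUR reached 517 ± 158 and overlapped PLAT at 642 ± 121, from which it was apart in DMSO. SERPINB2, eighth of the 9 genes in DMSO, was sixth in CA4 at 109 ± 42.7 per kilobase, though it overlapped THBD at 62.9 ± 15.6.

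The other genes of the plasminogen system were taken from a list of 22, written from general knowledge with earlier results of these data known. It covers plasminogen itself, other serpins, plasminogen receptors and the clearance receptors of activator and inhibitor complexes. Of the 15 that were abundant enough to test, 0 passed in either direction in limma. At an unadjusted p under 0.05 in limma there were 2, where 23% of all tested genes lay. On the recovered reads edgeR called 0 and DESeq2 called 1, S100A10, where they called 4.62% and 12.3% of all genes with an adjusted p. The median log2 fold change was 0.02 against -0.0082 over all genes tested. LRP1, the endocytic receptor that clears these complexes, averaged 69136 ± 10526 normalized counts without CA4 and 69663 ± 4536 with it (SD over 3 libraries), with a log2 fold change of 0.02 (95% interval -0.27 to 0.31) that was below 0 under each of the 3 other scalings. ANXA2, a plasminogen receptor, had log2 fold change -0.26 (limma adjusted p = 0.168), and ENO1, a glycolytic enzyme that also binds plasminogen at the cell surface, -0.14 (limma adjusted p = 0.503). S100A10, the partner of ANXA2 in its complex and named here after its values were seen, had 2503, 2732 and 2986 normalized counts in DMSO and 1711, 2144 and 2332 in CA4. Its groups did not overlap, but -0.42 on the log2 scale, with SE 0.13, did not pass (limma adjusted p = 0.109). Plasminogen itself, PLG, had between 4.46 and 12.6 normalized counts per library and was not tested, nor were SERPINF2, KLKB1, CPB2, A2M, ST14 and HPN.

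The other coagulation genes, a list of 34 made in the same way, held 17 that could be tested, and 0 passed in either direction in limma. At an unadjusted p under 0.05 there were 7, against 23% of all tested genes, and edgeR called 0 and DESeq2 called 4, LMAN1 (named after its values were seen), THBS1, F2RL2 and F2R, against 4.62% and 12.3% of all genes. The median log2 fold change was 0.059. The 3 thrombin and protease receptors that were tested had values below 0, and they are named here after those values were seen. F2RL2, protease-activated receptor 3, had 1558, 1242 and 1556 normalized counts in DMSO and 1010, 865 and 1072 in CA4, with no overlap. Its log2 fold change of -0.56 (SE 0.13) lay just outside the threshold (limma adjusted p = 0.052) and within it under quantile normalization (0.0467), 75th percentile scaling (0.0433), equal totals (0.0304) and a mean of at least 50 (0.0456). It passed in 0 of the 6 fits without a library (limma adjusted p from 0.069 to 0.172) and not without the variance trend (0.109). F2R, the main thrombin receptor, had 4698, 4310 and 5402 in DMSO and 3363, 3166 and 4102 in CA4, or -0.44 on the log2 scale with SE 0.13 (limma adjusted p = 0.0874). F2R passed with equal totals (limma adjusted p = 0.0425) and in DESeq2 (adjusted p = 0.0221), and F2RL2 in DESeq2 as well (adjusted p = 0.00276). F2RL1, a receptor for trypsin-like proteases and for the tissue factor complex, was low, at 75.3 ± 26.1 and 44.4 ± 10.2 (SD, n = 3 each), with log2 fold change -0.71 (limma adjusted p = 0.253).

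Of the most abundant genes on that list, THBS1, the matrix protein thrombospondin 1, averaged 261662 ± 35869 normalized counts without CA4 and 344498 ± 42337 with it (SD over 3 libraries), and its log2 fold change was 0.40 (limma adjusted p = 0.158). THBS1 passed in DESeq2 on the recovered reads (adjusted p = 0.0423). TGM2, a transglutaminase, had log2 fold change 0.14 (limma adjusted p = 0.367), and GAS6, a vitamin K-dependent ligand, 0.059 (limma adjusted p = 0.675). VWF, named after its values were seen, had 756, 675 and 509 normalized counts in DMSO and 805, 717 and 1732 in CA4, so that CA4 replicate 3 stood apart, as it did for PECAM1. Of the 17 genes not tested, F5, F7, F9, F11, F13A1, F13B, FGA and FGG were listed at 0 in every library, where a count of 0 allows up to 3 reads. F7 encodes the protease that tissue factor binds, and most plasma coagulation factors are made by the liver.

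**Figure D4:**
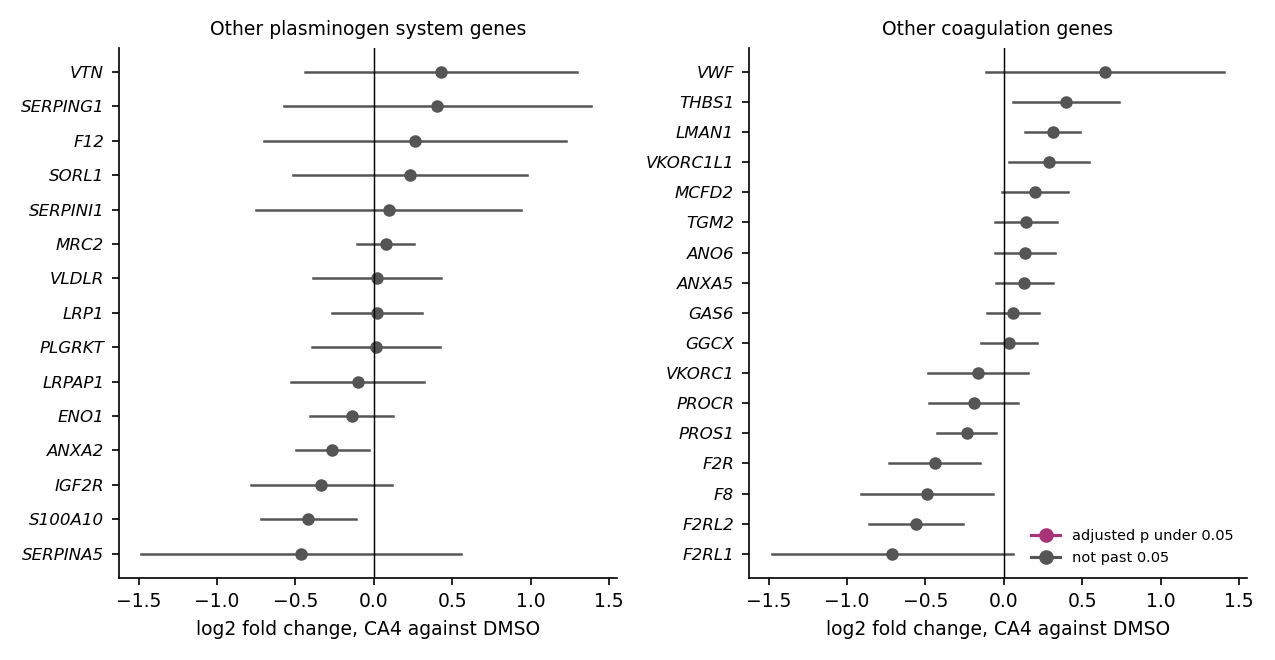
Log2 fold change, CA4 against DMSO, with 95% intervals from limma, for the 15 tested genes of the plasminogen list (left) and the 17 of the coagulation list (right). No gene of either list is past the threshold, and on the right the receptors F2RL1, F2RL2 and F2R lie below 0.

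The genes whose pattern over the 6 libraries was most like that of a called gene were sought among 11688 others that averaged 50 normalized counts or more. Likeness was the root mean square difference of log2 values, each gene set to 0 at its DMSO mean. For F3 the nearest were WWC1 at 0.088, ENSG00000276886 at 0.091 and CEACAM19 at 0.11. WWC1, a scaffold protein of the Hippo pathway, had 362 mean normalized counts in DMSO and 1089 in CA4, a log2 fold change of 1.61 (limma adjusted p = 0.0126). For PLAUR the nearest were ITPRIP at 0.094, PVR at 0.10 and HDAC9 at 0.13. PVR, the poliovirus receptor and a ligand of immune receptors, had 3017 and 7230, a log2 fold change of 1.25 (limma adjusted p = 0.0207), and HDAC9, a class IIa histone deacetylase, had 292 and 664. All 6 were chosen for likeness to a called gene in the same libraries, so that their own calls add nothing. WWC1 passed in 4 of the 6 fits without a library and the others in 2 each, and none of the 6 genes passed without the variance trend.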

How the data were processed

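RNA sequencing after polyA selection was analysed in 6 libraries, 3 per group, with groups and replicate numbers taken from the titles. The authors deposited normalized counts, a signal in which the reads of each gene are divided by a factor of its library. The submitters' processing notes name GRCh38, Trim Galore 0.6.6, FastQC 0.12.1, STAR 2.7.9a, Salmon 1.8.0 and DESeq2 1.44.0, without their roles. Annotation release and use of strand are not given in the sources used here, so overlapping genes carry uncertain counts. In every column 100% of values were whole multiples of 1 step within 0.01, which recovered 19524936 to 22538004 reads per library. These may be rounded estimates, and depth limits cover counting error only.

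Genes with a mean of at least 10 (13928) were tested on log2(normalized count + 1) with limma 3.58.1 in R 4.3.3 (treatment only, mean trend). The two-sided p-values were adjusted by Benjamini-Hochberg over all of them, with 0.05 as threshold. Fold changes on this scale understate low genes. Intervals are limma's, unadjusted. edgeR 4.0.16 (quasi-likelihood) called 643 genes on the recovered reads, and DESeq2 1.42.0 was also run. Scripts were tested on simulated data. Ratios were compared by exact permutation.

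Symbols came from the supplied gene table, or for 29 IDs from GENCODE 29, and covered 35832 IDs. Members and lists were chosen with earlier results of these data known. A gene of the plasminogen list is not reported here, and the counts for that list leave it out. Named are the 9 genes, every called list gene, the 3 most abundant uncalled genes of each list and the 3 genes most like each called member, and other genes of these lists are named for their values or calls. Alternatives were pseudocounts of 0.1 and 5, no filter, a mean of 50, 3 scalings, 2 variance models, the replicate block, both count models and leaving out each library.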

Additional observations from a re-analysis of the deposited data

How the results depend on the processing

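Over 18 alternatives the log2 fold changes of the 9 genes gave 162 values, of which 137 kept direction and side of the threshold, 11 lost the call, 8 gained it and 6 reversed. The reversals were in SERPINE2, from -0.36 to 0.11 without a library (main -0.074), and in TFPI (main 0.038), -0.064 with equal totals and from -0.049 to 0.13 without a library. LRP1 (0.02) was -0.087 under quantile normalization, -0.013 with equal 75th percentiles, -0.082 with equal totals and from -0.073 to 0.14 without a library. GAS6 (0.059) was -0.14 under quantile normalization and -0.043 with equal totals. Without a change of direction, ANXA2 (-0.26) reached -0.41 under quantile normalization, ENO1 (-0.14) ran from -0.28 under quantile normalization to -0.038 without CA4 replicate 3, with -0.24 under equal totals and -0.23 without CA4 replicate 2, and TGM2 (0.14) was 0.021 under quantile normalization, 0.04 with equal totals and 0.081 without CA4 replicate 3. THBS1 was 0 under quantile normalization, which gives that value to any gene with the same rank in every library. Of the 9 genes 2 passed in the main test, 1 under quantile normalization, 1 with equal totals, 0 without the variance trend, 4 in DESeq2 and from 0 to 3 without a library. On the plasminogen list (main 0) the count was 1 in DESeq2 and 0 without each library. On the coagulation list (main 0) it was 1 with a mean of at least 50, 1 under quantile normalization, 1 with equal 75th percentiles, 2 with equal totals, 4 in DESeq2 and 0 without each library. Over all genes (main 688) it was 103 without the trend, 1613 in DESeq2 and from 81 without DMSO replicate 3 to 994 without DMSO replicate 1, with 100 without DMSO replicate 2, 150 without CA4 replicate 3 and 156 without CA4 replicate 1. Fits without a library have less power by construction, and among themselves they ran from 81 to 994 genes past the threshold. The causes of these differences and of the other changes were not tested. Without a library the difference in log2 ratio ran from 1.3 to 1.67 for F3 to TFPI (main 1.46), from 0.017 without DMSO replicate 3 to 0.29 without DMSO replicate 2 for PLAU to PLAT (main 0.17, 0.067 without CA4 replicate 1 and 0.26 without CA4 replicate 3), and from 0.32 without DMSO replicate 3 to 0.88 without CA4 replicate 3 for PLAU to SERPINE2 (main 0.60, 0.37 without CA4 replicate 2).

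With the replicate number as a block, 2397 genes passed over all, 6 of the 9 genes (PLAU, PLAUR, PLAT, SERPINB2, F3 and THBD), 2 on the plasminogen list (ANXA2 and S100A10) and 5 on the coagulation list (LMAN1, THBS1, F2RL2, F2R and VKORC1L1). Deviations of same-numbered libraries from their group means correlated at 0.202, 0.159 and 0.0588, not all above 0.1, and 5 of the 6 libraries correlated best with their own number. Nothing in the labels ties a number to a culture or day, so the libraries were not treated as paired.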
